A study of Mus musculus with 13 samples.

Results

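The genes described here carry out glucose and lactate transport, glycolysis, the pentose phosphate pathway and the entry of pyruvate into mitochondria. They are the rows of the count table whose symbol is on a fixed list of 39 genes, out of 24495 genes in the table, and all 39 were among the 14607 genes with enough counts to test. The list holds 5 transporters, 9 enzymes of upper glycolysis, 3 enzymes that set fructose 2,6-bisphosphate, 10 enzymes of lower glycolysis and lactate formation, 4 pentose phosphate enzymes, 7 genes of pyruvate dehydrogenase and its kinases, and the regulator Hif1a.

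RNA was measured by bulk RNA-seq in primary mouse embryonic fibroblasts (MEFs) from embryonic day 12.5, strain background V6.5 129XBI/6. Every group was labelled Tet2-/- and carried doxycycline-inducible OKSM (Oct4, Klf4, Sox2 and Myc) with the rtTA activator, and all cultures were kept at 5% oxygen. The 3 Untreated libraries came from MEFs without reprogramming; whether these had received the empty vector is not clear from the labels. The other groups were collected at day 5 of reprogramming after infection with a pMXs retrovirus, empty (pMXs, 3 libraries), with wild-type Tet2 (Tet2-WT, 3 libraries) or with the stalling mutant of Tet2 (Tet2-E, 4 libraries). TET2 oxidizes 5-methylcytosine in DNA. Feeder MEFs, arrested in growth, supported the day 5 cells, and the medium held serum, LIF, sodium pyruvate, 1 µM PD0325901 (a MEK inhibitor), 3 µM CHIR99021 (a GSK3 inhibitor) and 2 µg/mL doxycycline. No label names a sort or a removal of feeders. In these bulk samples, fewer cells of a type and less RNA per cell cannot be told apart, and reprogramming, virus, feeders and medium all differ together between the Untreated and day 5 groups. The labels do not say whether libraries of a group came from separate cultures, so the p-values may rest on technical spread alone.

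Glycolysis splits glucose into pyruvate. Pyruvate is then reduced to lactate and exported, or oxidized by the pyruvate dehydrogenase complex, which PDK kinases switch off by phosphorylation. Pluripotent cells are known for a high rate of glycolysis compared with fibroblasts, and several steps have isozymes that are used in different tissues.

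Total counts per library were 21985590 to 25991708 in Untreated, 14310277 to 25326826 in pMXs, 20261396 to 25720579 in Tet2-WT and 14052646 to 26265382 in Tet2-E. Levels are given in CPM, counts relative to the total of the library after scaling between libraries. Tet2 stood at 37.8 to 48.3 CPM in Untreated and 39.1 to 58.8 CPM in pMXs libraries; which part of the gene is deleted is not given in the sources used here, so these counts do not check the knockout. It stood at 1176 to 1243 CPM in Tet2-WT. In Tet2-E, it stood at 1299 to 1403 CPM in 3 libraries and at 581 CPM in replicate 100. The summed level of 16 fibroblast and feeder markers was 44380 to 47410 CPM in Untreated, 18450 to 20770 CPM in pMXs, 12220 to 13830 CPM in Tet2-WT and 16100 to 17150 CPM in Tet2-E. All 16 fell from Untreated to pMXs, where 35% of all genes tested fell. From pMXs to Tet2-WT 7 fell and 1 rose, where 6.52% of all genes tested fell and 6.01% rose. No marker of this list was at 0 in every library of a group. The summed level of 12 epithelial markers was 21.6 to 36.8 CPM in Untreated and 467 to 620.5 CPM in pMXs. It was 388 to 605 CPM in Tet2-WT and 395 to 511 CPM in Tet2-E. Most of it at day 5 was Cdh1 and Krt19, and Ocln was at 0 in every Untreated library. From Untreated to pMXs 10 of the 12 rose and 0 fell, where 35% of all genes tested rose. From pMXs to Tet2-WT 2 rose and 0 fell. The part of either list in the results below was not tested.

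The first comparison asks how the genes of glucose use differ between fibroblasts and cells at day 5 of reprogramming without Tet2. From Untreated to pMXs, 22 of the 39 genes rose, 9 fell and 8 did not pass the test (edgeR quasi-likelihood test, adjusted p under 0.05 over all genes tested). The largest rises were in the neuronal and placental glucose transporter Slc2a3, in the hexokinase Hk2 and in the aldolase Aldoc. The largest falls were in the insulin-regulated transporter Slc2a4 and in the pyruvate dehydrogenase kinases Pdk4 and Pdk2. Changes were common in this comparison: 70.1% of all genes tested passed, 35% in each direction, against 79.5% of the 39. The median log2 fold change was 0.69 over the 39 genes and -0.00 over all genes tested. The libraries of the groups did not overlap for 30 of the 39 genes, and for 72% of all genes tested. The counts of the 39 genes together made up 0.527% to 0.646% of each Untreated library and 1.06% to 1.20% of each pMXs library.

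**Figure D1:**
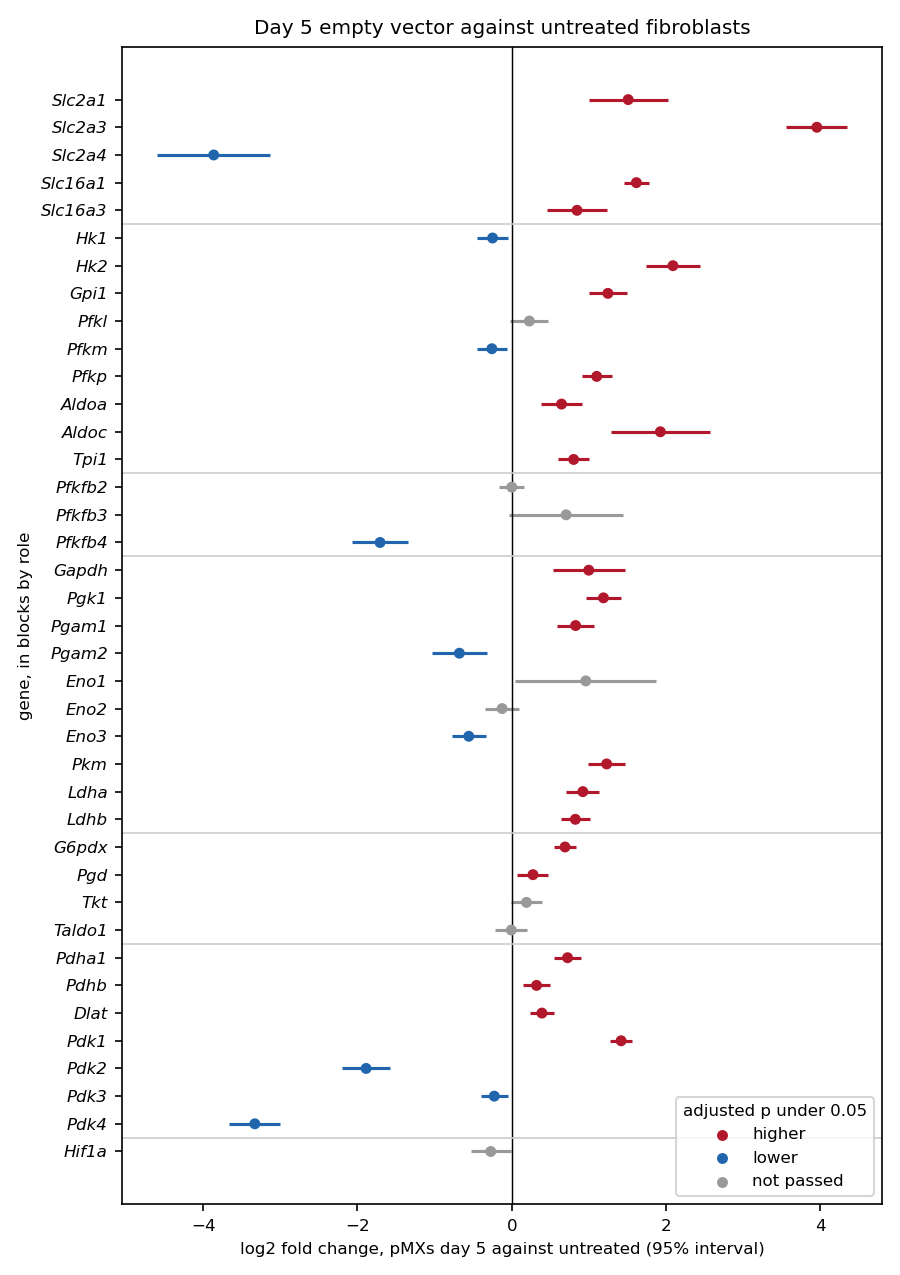
Log2 fold change of each of the 39 genes from Untreated (3 libraries) to pMXs at day 5 (3 libraries), with bars for the 95% confidence interval from edgeR, grouped by role. Slc2a3 lies farthest to the right at 3.96, and Slc2a4 (-3.86) and Pdk4 (-3.33) farthest to the left.

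Among the transporters, 4 rose and 1 fell. Slc2a3 (GLUT3, a high-affinity glucose transporter) was at 17.2, 17.2 and 19.3 CPM in Untreated libraries (replicates 1, 2 and 100, the order used throughout) and at 305, 289 and 239 CPM in pMXs libraries (replicates 2, 100 and 250). Every pMXs library was far above every Untreated one, with a log2 fold change of 3.96 ± 0.19 (SE; adjusted p = 1.64e-10), 15.5-fold. Slc2a1 (GLUT1, the widespread basal glucose transporter) read 146, 141 and 131 CPM in Untreated and 517, 345 and 331 CPM in pMXs. It rose by 1.51 ± 0.23 on the log2 scale (adjusted p = 8e-05), with pMXs replicate 2 well above the other 2 pMXs libraries. Slc2a4 (GLUT4, typical of muscle and fat) went the other way, from 4.58, 4.94 and 4.72 CPM to 0.38, 0.27 and 0.34 CPM. These are 97 to 110 counts per Untreated library and 5 to 7 counts per pMXs library, and the log2 fold change was -3.86 ± 0.34 (adjusted p = 9.09e-08).

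Both lactate transporters rose. Slc16a1 (MCT1) read 39.2, 34.3 and 39.5 CPM in Untreated and 115, 117 and 115 CPM in pMXs, a log2 fold change of 1.62 ± 0.08 (adjusted p = 8.54e-11). Slc16a3 (MCT4, common in strongly glycolytic cells) read 228, 178 and 149 CPM in Untreated and 393, 334 and 272 CPM in pMXs. Its rise of 0.85 ± 0.18 was smaller (adjusted p = 0.000717), and its libraries were more spread out within each group.

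In upper glycolysis, 6 genes rose, 2 fell and 1 did not pass. The hexokinases trap glucose inside the cell as glucose 6-phosphate, and they moved in opposite directions. Hk2 read 55.5, 58.6 and 51.3 CPM in Untreated and 290, 216 and 198 CPM in pMXs, a log2 fold change of 2.09 ± 0.16 (adjusted p = 2.95e-08). Hk1, the widespread hexokinase, read 128, 117 and 104 CPM in Untreated and 100.3, 98.6 and 94.7 CPM in pMXs (-0.25 ± 0.10, adjusted p = 0.031). That small fall was lost in the fit with the replicate number as a block (-0.18, adjusted p = 0.0916) and on leaving out any one of Untreated 1 (0.132), Untreated 2 (0.0653), pMXs 2 (0.0508), pMXs 100 (0.0641) or pMXs 250 (adjusted p = 0.0919). Per kilobase of exon, Hk1 stood at 25.1 ± 2.5 CPM and Hk2 at 10.0 ± 0.7 CPM in Untreated (SD, n = 3). In pMXs the order was turned, with Hk1 at 21.1 ± 0.6 CPM and Hk2 at 42.6 ± 8.8 CPM per kilobase (SD, n = 3).

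The phosphofructokinases catalyse the committed step of glycolysis, and only 1 of these 3 rose. Pfkp (platelet type) read 48.0, 41.4 and 42.9 CPM in Untreated and 97.2, 100.1 and 86.7 CPM in pMXs, with no overlap (1.10 ± 0.09, adjusted p = 4e-08). Pfkm (muscle type) fell slightly, from 73.1, 70.2 and 63.9 CPM to 52.3, 57.5 and 63.8 CPM (-0.26 ± 0.09, adjusted p = 0.0181). Without Untreated 1 (adjusted p = 0.0634), without pMXs 2 (0.0966) or in a fit of these 2 groups alone (0.0519), it no longer passed. Pfkl (liver type) did not pass, with a log2 fold change of 0.23 ± 0.12 and overlapping libraries of 227 to 300.2 CPM in Untreated and 288 to 315 CPM in pMXs. It passed with the replicate block (0.30, adjusted p = 0.0242) and without Untreated 1 (0.34).

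The remaining upper enzymes all rose. Gpi1, which turns glucose 6-phosphate into fructose 6-phosphate, went from 184 to 241 CPM in Untreated to 464 to 528 CPM in pMXs (1.25 ± 0.12). Aldolase cleaves fructose 1,6-bisphosphate: Aldoa, the major form, rose from 941 to 1329 CPM to 1650 to 1903 CPM (0.65 ± 0.13). Aldoc, the aldolase of brain, read 9.03, 6.90 and 6.91 CPM in Untreated and 24.7, 30.1 and 32.4 CPM in pMXs (1.93 ± 0.30, adjusted p = 7.17e-05). Its level per kilobase stayed far below that of Aldoa, at 9.77 ± 1.32 CPM against 960 ± 74 CPM in pMXs (SD, n = 3). Tpi1, which interconverts the 2 triose phosphates, rose from 423 to 536 CPM to 798 to 883 CPM (0.80 ± 0.09).

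The bifunctional PFKFB enzymes make and remove fructose 2,6-bisphosphate, the activator of phosphofructokinase. Pfkfb4 fell from 12.3, 9.37 and 10.3 CPM to 3.36, 2.72 and 3.90 CPM (-1.71 ± 0.17, adjusted p = 2.73e-07). Pfkfb3, the form with the strongest kinase activity, did not pass although its groups did not overlap: 58.7 to 64.2 CPM in Untreated and 145, 83.8 and 71.7 CPM in pMXs (0.70 ± 0.34, adjusted p = 0.0816). It passed with the replicate block (0.94, adjusted p = 9.03e-05) and without pMXs 250 (0.89). Pfkfb2, the heart form, stood at 38.1 to 41.2 CPM in Untreated and 37.0 to 41.4 CPM in pMXs (0.00 ± 0.08).

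In lower glycolysis, 6 genes rose, 2 fell and 2 did not pass. Pkm, the pyruvate kinase of most tissues, read 1041, 912 and 748 CPM in Untreated and 2104, 2256 and 1978 CPM in pMXs (1.23 ± 0.11, adjusted p = 1.24e-07). Ldha, the lactate dehydrogenase subunit that favours lactate formation, read 888, 773 and 711 CPM in Untreated and 1588, 1590.0 and 1313 CPM in pMXs (0.92 ± 0.10, adjusted p = 9.33e-07). For both enzymes all 3 pMXs libraries lay above all Untreated ones. Ldhb, the heart-type subunit, rose as well, from 17.1, 15.8 and 15.1 CPM to 30.2, 27.8 and 27.3 CPM (0.82 ± 0.09, adjusted p = 6.79e-07). Per kilobase in pMXs, Ldha stood at 790.0 ± 84.1 CPM and Ldhb at 21.8 ± 1.2 CPM (SD, n = 3). Pgk1, which makes ATP from 1,3-bisphosphoglycerate, rose from 109 to 139 CPM to 276 to 306 CPM (1.19 ± 0.10). Pgam1, the main phosphoglycerate mutase, rose from 62.7 to 69.4 CPM to 95.1 to 133 CPM (0.83 ± 0.11).

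The members of this stage that are typical of muscle fell. Eno3, the muscle enolase, read 31.6, 29.8 and 26 CPM in Untreated and 20.1, 19.0 and 20.5 CPM in pMXs (-0.56 ± 0.10, adjusted p = 0.000222). Pgam2, the muscle phosphoglycerate mutase, went from 5.26 to 6.45 CPM to 3.68 to 3.76 CPM (-0.68 ± 0.17). The summed level of 12 skeletal muscle markers moved with them, from 159 to 188 CPM in Untreated to 29.1 to 38.0 CPM in pMXs. Of 7 markers tested 6 fell and 1 rose, where 35% of all genes tested fell and 35% rose. Most of the sum was Des and Acta1. Des stood at 63.8 to 86.8 CPM in Untreated and 13.7 to 17.75 CPM in pMXs, Acta1 at 74.5 to 96.2 CPM and 12.1 to 15.5 CPM. Myod1 and Ckm were at 0 in every pMXs library, but reached at most 0.333 and 0.0504 CPM in Untreated. The same marker sum stands beside the falls of Slc2a4 and Pfkm. For Slc2a4, 8 adipocyte markers summed to 72.8 to 123 CPM in Untreated and 24.1 to 30.9 CPM in pMXs. Most of this sum was Lpl and Cebpa. Lpl stood at 48.0 to 94.45 CPM in Untreated and 14.5 to 22.2 CPM in pMXs. Cebpa stood at 19.8 to 21.5 CPM and 6.78 to 8.27 CPM. Lep and Cidec were at 0 in every pMXs library, but in Untreated Cidec was also at 0 and Lep at most at 0.05 CPM. Adipoq and Plin1 reached at most 0.05 and 0.125 CPM in Untreated. The part of muscle-like or fat-like cells in the falls of Eno3, Pgam2, Slc2a4 and Pfkm was not tested. Eno2, the neuronal enolase, did not pass (21.6 to 27.4 CPM in Untreated, 20.7 to 25.5 CPM in pMXs, -0.12 ± 0.11).

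The levels of some lower enzymes are uncertain because their sequence is shared with other genes. Of the 40-base stretches in the RefSeq-linked transcripts, the share also found in another annotated gene was 79.1% for Gapdh (glyceraldehyde 3-phosphate dehydrogenase), 74.8% for Eno1 (the main enolase) and 68.1% for Pgk1. It was 10% to under 50% for 13 of the 39 genes and under 10% for 23. Among those 13 it was highest for Pkm (44.1%), Pgam1 (41.8%), Pdhb (35.9%) and Ldhb (34.3%). How the counting treated reads that fit several places is not given in the sources used here. Gapdh was listed at only 29.6, 24.5 and 14.5 CPM in Untreated and 46.7, 43.9 and 46.7 CPM in pMXs (1.00 ± 0.21, adjusted p = 0.000935). Eno1 read 3.12, 1.81 and 0.93 CPM in Untreated and 6.53, 2.03 and 3.35 CPM in pMXs and did not pass (0.96 ± 0.43, adjusted p = 0.0569). It passed with the replicate block (1.19, adjusted p = 0.00251), in DESeq2 (1.00), and without Untreated 1 (1.495) or pMXs 100 (1.32). Its near copy Eno1b, which shares 73.2% of those stretches, was listed at 227 to 361 CPM in Untreated and 508 to 530.0 CPM in pMXs, so counts of the 2 enolase rows cannot be read apart.

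Of the pentose phosphate enzymes, which make NADPH and ribose 5-phosphate, 2 rose and 2 did not pass. G6pdx, the glucose 6-phosphate dehydrogenase that commits glucose to the pathway, read 86.1, 85.0 and 75.3 CPM in Untreated and 129, 136 and 133 CPM in pMXs (0.69 ± 0.06, adjusted p = 1.47e-07). Pgd, the next dehydrogenase, read 162, 145 and 122 CPM in Untreated and 184, 177 and 159 CPM in pMXs, with overlap (0.28 ± 0.09, adjusted p = 0.0166). Its rise was lost without Untreated 100 (0.17, adjusted p = 0.0817) or pMXs 2 (0.23, adjusted p = 0.0666). The enzymes of the non-oxidative branch showed overlapping libraries: Tkt stood at 193 to 268 CPM and 267 to 271 CPM (0.19 ± 0.10), and Taldo1 at 46.3 to 55.1 CPM and 44.1 to 55.6 CPM (-0.01 ± 0.10). Tkt passed on leaving out Untreated 1 (0.30).

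The subunits of pyruvate dehydrogenase rose and its kinases split. Pdha1, the catalytic alpha subunit, went from 265 to 307 CPM to 447 to 502 CPM (0.72 ± 0.08). Pdhb, the beta subunit, read 39.6, 39.9 and 45.4 CPM in Untreated and 55.4, 53.5 and 47.0 CPM in pMXs (0.32 ± 0.08, adjusted p = 0.00238). Dlat, the acetyltransferase core, went from 70.4 to 83.2 CPM to 98.0 to 100.2 CPM (0.39 ± 0.07). Of the 4 kinases, Pdk1, a known HIF target, was the one that rose: 105, 102 and 114 CPM in Untreated and 299, 281 and 278 CPM in pMXs (1.42 ± 0.07, adjusted p = 1.11e-10). Pdk4, the kinase induced by fasting in muscle and liver, fell from 43.8, 51.6 and 38.9 CPM to 3.93, 3.98 and 5.61 CPM (-3.33 ± 0.16, adjusted p = 6.55e-11). Pdk2, the widespread kinase, fell from 30.1, 30.2 and 27.5 CPM to 7.04, 7.58 and 9.17 CPM (-1.89 ± 0.14, adjusted p = 1.56e-08). For both of these every pMXs library was below every Untreated one. Pdk3 overlapped between groups, at 29.4 to 34.4 CPM and 26.8 to 29.4 CPM (-0.23 ± 0.08, adjusted p = 0.0211). Its call was lost without Untreated 1 (adjusted p = 0.0771), Untreated 2 (0.072), pMXs 2 (0.0608) or pMXs 100 (0.0803), and in a fit of these 2 groups alone (0.0848).

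Hif1a, the oxygen-regulated subunit of a transcription factor that drives many glycolytic genes, read 301, 352 and 451 CPM in Untreated and 280.0, 317 and 318 CPM in pMXs. The groups overlapped and the difference did not pass (-0.27 ± 0.12, adjusted p = 0.0595). It passed with the replicate block (-0.35, adjusted p = 0.00664), in DESeq2 (-0.28) and without Untreated 1 (-0.40). HIF-1 is regulated mainly through the stability of its protein, which was not measured.

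**Figure D2:**
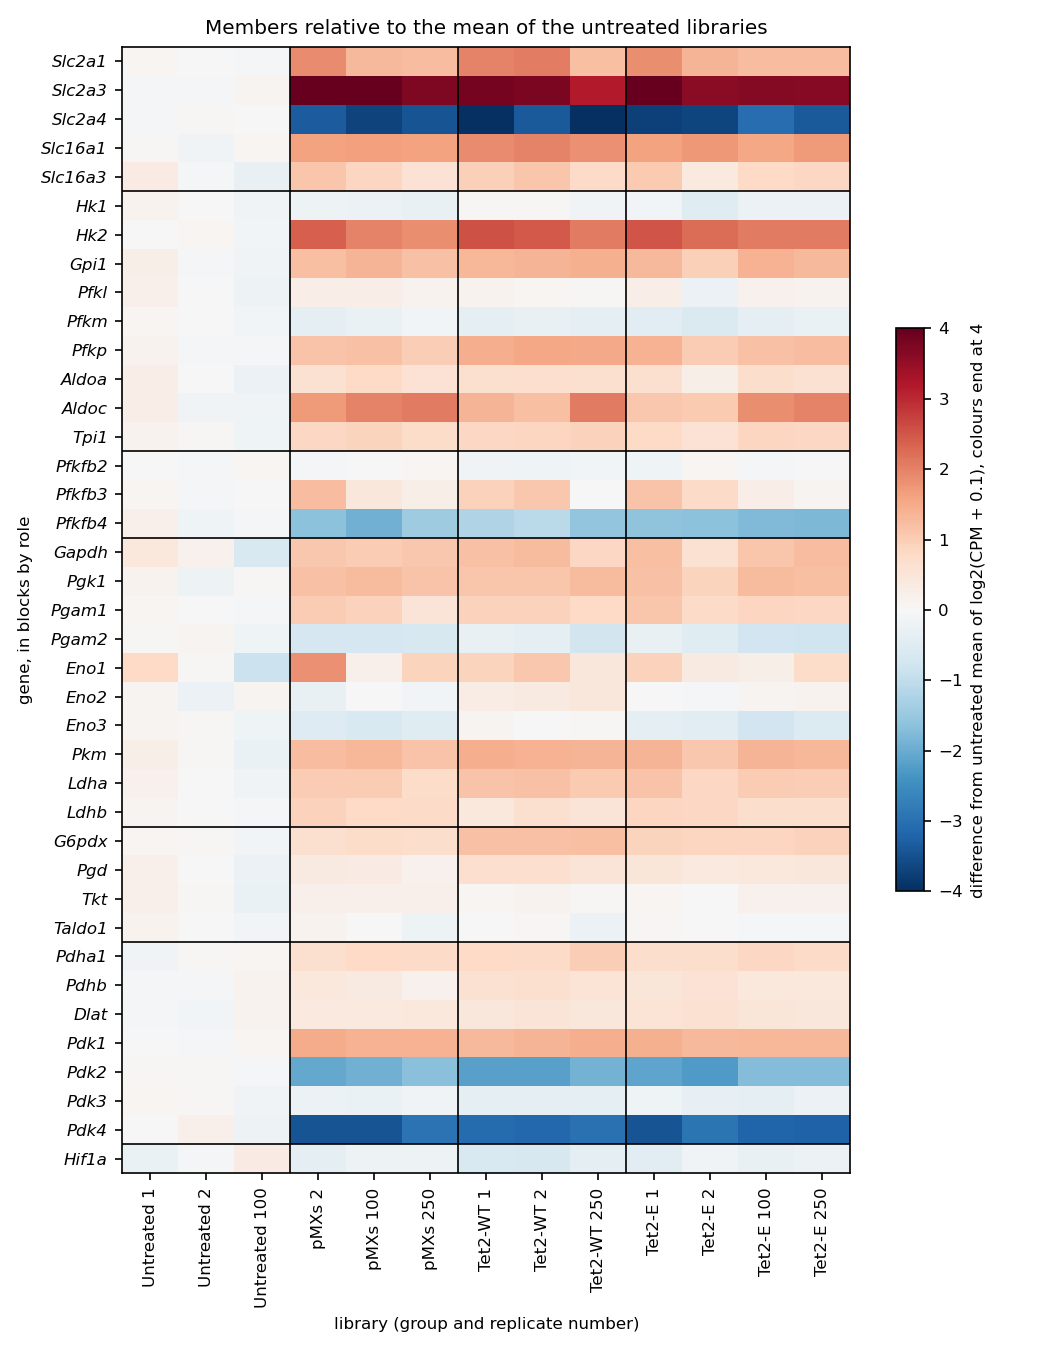
Heat map of the 39 genes (rows, by role) in the 13 libraries (columns, by group), as log2(CPM + 0.1) minus the mean of the Untreated libraries on that scale, with colours that end at 4 in each direction. Slc2a3 and Hk2 are above the Untreated mean and Slc2a4, Pdk4 and Pdk2 below it in all 10 day 5 libraries.

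The promoters of 4 genes that rose are shown because they are textbook HIF targets with different tasks: glucose uptake, its phosphorylation, ATP formation and lactate formation. Each is the 150 bases before a RefSeq transcription start (GRCm38.p6, which is not the build of the counts), and capitals mark ACGTG or GCGTG, the core letters of the HIF site, read on either strand (CACGT or CACGC on the strand shown). They lie at chr4:119108595-119108744 (plus strand, Slc2a1), chr6:82774455-82774604 (minus strand, Hk2), chrX:106186950-106187099 (plus strand, Pgk1) and chr7:46845654-46845803 (plus strand, Ldha, the first of its starts).
Slc2a1: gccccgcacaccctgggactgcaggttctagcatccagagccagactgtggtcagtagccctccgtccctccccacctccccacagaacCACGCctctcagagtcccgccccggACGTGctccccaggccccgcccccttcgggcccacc
Hk2: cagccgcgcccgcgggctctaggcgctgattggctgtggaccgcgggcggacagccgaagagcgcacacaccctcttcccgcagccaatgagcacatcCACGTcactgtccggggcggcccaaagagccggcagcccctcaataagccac
Pgk1: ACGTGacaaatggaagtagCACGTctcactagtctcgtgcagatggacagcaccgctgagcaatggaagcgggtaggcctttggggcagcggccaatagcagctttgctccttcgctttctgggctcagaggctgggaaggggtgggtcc
Ldha: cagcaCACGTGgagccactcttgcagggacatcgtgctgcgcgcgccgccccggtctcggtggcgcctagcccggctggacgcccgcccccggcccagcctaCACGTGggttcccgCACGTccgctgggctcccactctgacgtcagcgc
The Ldha stretch holds 5 matches, 4 of them as overlapping pairs in the palindrome CACGTG, and the other stretches hold 1 or 2. A RefSeq window from 250 bases before to 50 after a start was found for 37 of the 39 genes, 54 windows in all, with none for Slc2a3 and Slc2a4. ACGTG on either strand was in 24 of these windows (44.4%) and in 19.6% of all 32851 windows in the table. GCGTG was in 57.4% against 32.4%, and CACGTG, which contains ACGTG, in 13% against 7.2%. By the comparison of pMXs with Untreated, ACGTG was in a window of 13 of 21 genes that rose, 4 of 8 that fell and 3 of 8 that did not pass. These are counts of genes with a match in any of their windows, so they cannot be set against the shares of windows. The same count over all genes was not made. The shares and counts describe letters in a window, not sites, and the letters do not show which factor binds there. Binding of HIF, or of the doxycycline-inducible Myc, was not measured. The 32851 windows were not limited to genes tested here. Some genes have overlapping windows, so the windows are not independent of each other.

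Shifts between isozymes were measured as the log2 ratio of the counts of 2 genes within a library, which does not depend on scaling between libraries. From Untreated to pMXs, 7 of 8 ratios differed with no overlap. Each had an exact two-sided permutation p of 0.1, the smallest that 3 against 3 libraries allow (adjusted p = 0.16 over 16 tests), so none could pass. The Slc2a3 to Slc2a1 ratio rose from -2.96 ± 0.17 to -0.50 ± 0.26 (SD, n = 3 each) and the Hk2 to Hk1 ratio from -1.07 ± 0.11 to 1.24 ± 0.25. Aldoc gained on Aldoa by 1.27 and Pfkp on Pfkl by 0.86. Pfkm against Pfkl was lower by -0.49, Slc16a3 against Slc16a1 by -0.77 and Eno3 against Eno1 by -1.57, the last resting on the uncertain Eno1 counts. The Ldhb to Ldha ratio stood at -5.62 ± 0.07 and -5.71 ± 0.13 with overlap (exact p = 0.3).

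**Figure D3:**
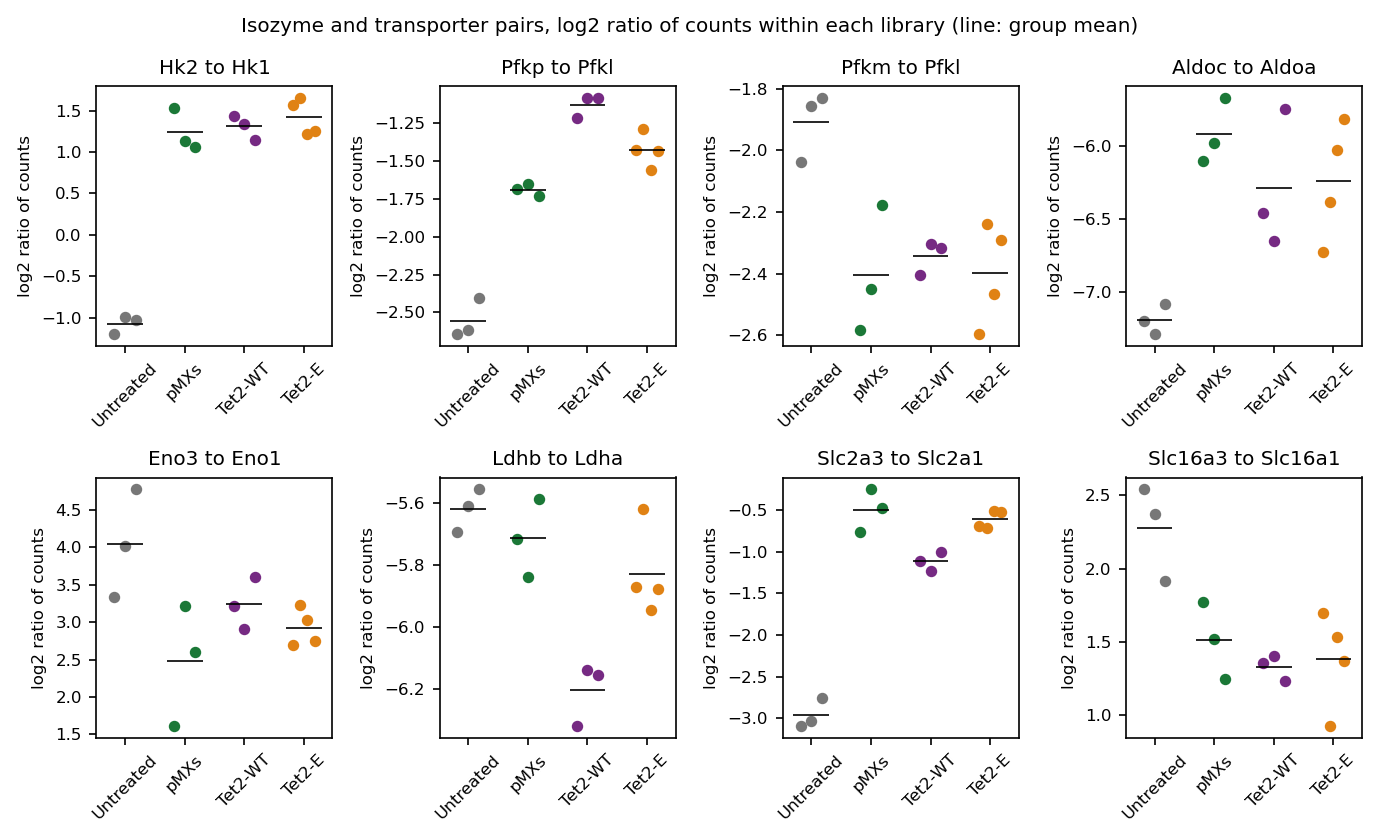
Log2 ratio of the counts of the 2 genes of each isozyme pair in every library, by group, with 1 point per library and a line at the group mean. The Hk2 to Hk1 ratio lies below 0 in the 3 Untreated libraries and above 0 in the 10 day 5 libraries, and the Ldhb to Ldha ratio is lower in the 3 Tet2-WT libraries than in the 3 pMXs libraries.

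The second comparison asks what wild-type Tet2 changes at day 5. From pMXs to Tet2-WT, 7 of the 39 genes rose, 1 fell and 31 did not pass, 20.5% called against 12.5% of all genes tested (6.01% higher and 6.52% lower). The genes that rose were the 2 oxidative pentose phosphate dehydrogenases G6pdx and Pgd, the enolases Eno2 and Eno3, Pfkp, the lactate transporter Slc16a1 and Pdhb. The gene that fell was Ldhb. The changes of the called genes were small, from -0.29 to 0.59 on the log2 scale. The median was 0.07 over the 39 genes and -0.00 over all genes tested. The libraries did not overlap for 17 of the 39 genes, against 34.6% of all genes tested. The calls for G6pdx, Eno3, Eno2 and Pfkp held with every alternative tried, those for Slc16a1, Pgd, Pdhb and Ldhb did not.

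G6pdx read 187, 185 and 188 CPM in Tet2-WT replicates 1, 2 and 250, against 129, 136 and 133 CPM in pMXs. The Tet2-WT libraries lay within a few CPM of each other and above every pMXs one (0.49 ± 0.06, adjusted p = 0.000134). The gene had thus risen from Untreated to pMXs and was higher again in Tet2-WT. Pgd read 227, 227 and 202 CPM in Tet2-WT against 184, 177 and 159 CPM in pMXs, with no overlap (0.33 ± 0.09, adjusted p = 0.0291). Its call was lost with the replicate block (0.27, adjusted p = 0.0576) and without pMXs 100 (adjusted p = 0.0727), pMXs 250 (0.145), Tet2-WT 1 (0.111) or Tet2-WT 2 (0.114). Tkt and Taldo1 did not pass (-0.11 ± 0.10 and -0.06 ± 0.10). Some G6pdx reads could fit its copy G6pd2, with which it shares 10.9% of its 40-base stretches.

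Eno3 read 31.1, 28.5 and 30.0 CPM in Tet2-WT against 20.1, 19.0 and 20.5 CPM in pMXs (0.59 ± 0.10, adjusted p = 0.00162). It thus lay at the level of the Untreated libraries, 26 to 31.6 CPM. Eno2 read 30.9, 32.3 and 34.4 CPM in Tet2-WT against 20.7, 25.5 and 23.6 CPM in pMXs (0.48 ± 0.10, adjusted p = 0.00654). No Tet2-WT library overlapped a pMXs library for either enolase. The summed skeletal muscle markers, beside Eno3, stood at 30.1 to 39.7 CPM in Tet2-WT and 29.1 to 38.0 CPM in pMXs, 0 of 7 tested passed, and Ckm was at 0 in both groups. The summed level of 12 neural markers, beside Eno2, was 740 to 1097 CPM in Tet2-WT and 589 to 711 CPM in pMXs. Of 11 tested 1 rose and 3 fell, where 6.01% of all genes tested rose and 6.52% fell. Most of the neural sum was Nes, at 645 to 949 CPM in Tet2-WT and 451 to 534 CPM in pMXs. None of the neural markers was at 0 throughout a group, and their part in the Eno2 result was not tested.

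Pfkp read 122, 129 and 125 CPM in Tet2-WT against 97.2, 100.1 and 86.7 CPM in pMXs (0.40 ± 0.09, adjusted p = 0.00709), again with no overlap. The transcripts of Pfkp share 16.5% of their 40-base stretches with those annotated to Pitrm1. Slc16a1 read 139, 148 and 133 CPM against 115, 117 and 115 CPM (0.28 ± 0.07, adjusted p = 0.0219). Its call was lost with the replicate block (0.27, adjusted p = 0.0516) and without pMXs 2 (0.0564), pMXs 100 (0.065), pMXs 250 (0.0793), Tet2-WT 1 (0.0638) or Tet2-WT 2 (adjusted p = 0.113). Pdhb read 64.1, 65.2 and 60.8 CPM against 55.4, 53.5 and 47.0 CPM (0.29 ± 0.08, adjusted p = 0.0293). That call was lost without pMXs 100 (0.0652), pMXs 250 (0.152), Tet2-WT 1 (0.0975) or Tet2-WT 2 (adjusted p = 0.113). Pdhb shares 35.9% of its 40-base stretches with Gm6123.

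Ldhb read 21.7, 24.9 and 23.0 CPM in Tet2-WT against 30.2, 27.8 and 27.3 CPM in pMXs (-0.29 ± 0.09, adjusted p = 0.0382). The fall was lost without the low-count filter (0.062) and without pMXs 2 (0.125), pMXs 100 (0.0822), pMXs 250 (0.0682), Tet2-WT 1 (0.169) or Tet2-WT 250 (adjusted p = 0.0836). Ldhb shares 34.3% of its 40-base stretches with Gm5514, so its counts and its ratio to Ldha are uncertain to that extent. Ldha read 1733, 1757 and 1642 CPM in Tet2-WT, each above the 1313 to 1590.0 CPM of pMXs, and did not pass (0.19 ± 0.10, adjusted p = 0.254). The Ldhb to Ldha ratio was lower in every Tet2-WT library, at -6.21 ± 0.10 against -5.71 ± 0.13 (SD, n = 3 each; exact permutation p = 0.1, adjusted 0.16). Pfkp gained on Pfkl by 0.56, and Slc2a3 against Slc2a1 was lower by -0.62, each without overlap and with the same smallest exact p of 0.1. The other 5 ratios overlapped between Tet2-WT and pMXs.

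Of the genes that had moved most from Untreated to pMXs, none passed in Tet2-WT against pMXs. Slc2a3 read 254, 243 and 162 CPM in Tet2-WT (-0.34 ± 0.16, adjusted p = 0.205); with the replicate block it passed, at -0.42 (adjusted p = 0.0337). Slc2a1 read 549, 572 and 324 CPM (0.28 ± 0.23) and Hk2 325, 302 and 232 CPM (0.29 ± 0.15). In each of these 3 genes Tet2-WT replicate 250 was the lowest. Aldoc read 19.7, 17.4 and 32.05 CPM (-0.34 ± 0.27). Slc2a4 stood at 0.05 to 0.37 CPM, Pdk4 stood at 4.96 to 5.49 CPM and Pdk2 at 6.38 to 7.88 CPM. Pkm read 2427, 2363 and 2286 CPM, each above the pMXs libraries, and did not pass (0.16 ± 0.11, adjusted p = 0.423). Gapdh read 49.8, 52.6 and 39.1 CPM (0.05 ± 0.21). Hif1a read 237, 233 and 274 CPM against 280.0 to 318 CPM in pMXs and did not pass (-0.30 ± 0.12, adjusted p = 0.137), except in a fit of these 2 groups alone. Hk1 did not pass either (0.23 ± 0.10, adjusted p = 0.149), with the same exception.

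**Figure D4:**
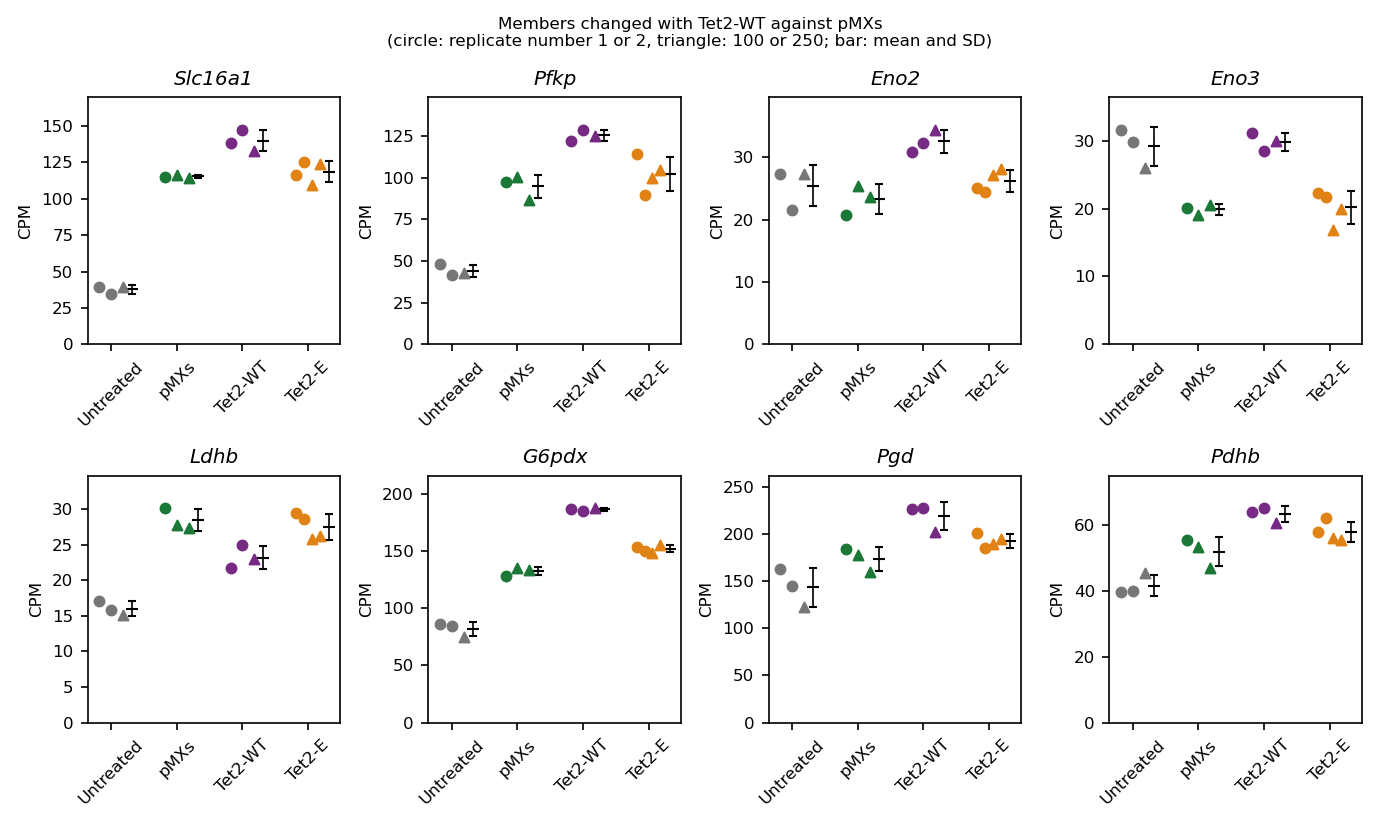
CPM in each library, by group, for the 8 genes that passed between Tet2-WT and pMXs, with 1 point per library (circle for replicate number 1 or 2, triangle for 100 or 250) and a bar for the group's mean and SD. G6pdx in Tet2-WT lies at 185 to 188 CPM, above the 4 Tet2-E libraries at 149 to 156 CPM and the 3 pMXs libraries at 129 to 136 CPM.

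The third comparison asks the same of the stalling mutant. From pMXs to Tet2-E, 0 of the 39 genes passed in edgeR, against 0.0479% of all genes tested (0.0205% higher and 0.0274% lower). That share rests on 7 genes; there were 93 with the replicate block, 152 with the set of replicate numbers as a term, 141 in DESeq2 and 50 without Tet2-E 100. At an unadjusted p under 0.05 there was 1 of the 39, G6pdx, against 1363 of all 14607 genes tested. DESeq2 called the same 1 gene (0.20, adjusted p = 0.0449). G6pdx read 154, 150.4, 149 and 156 CPM in Tet2-E replicates 1, 2, 100 and 250, all above the 129 to 136 CPM of pMXs (0.20 ± 0.06, edgeR adjusted p = 0.256). The libraries did not overlap for 4 of the 39 genes, against 10.2% of all genes tested. The 95% interval of the log2 fold change lay within 0.5 either side of 0 for 34 of the 39 genes, with half-widths from 0.13 to 0.96. Intervals for the main enzymes were -0.17 to 0.27 for Pkm, -0.14 to 0.27 for Ldha, -0.16 to 0.46 for Hk2, -0.54 to 0.39 for Slc2a1 and -0.49 to 0.14 for Slc2a3. Hif1a stood at 270 to 327 CPM (-0.03 ± 0.11).

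Both Tet2 constructs were set against the same pMXs libraries, so the difference between them was tested directly. Between Tet2-WT and Tet2-E, 2 of the 39 genes passed, both higher in Tet2-WT, 5.13% against 4.62% of all genes tested (2.43% higher and 2.19% lower). Eno3 read 22.3, 21.7, 16.9 and 19.9 CPM in Tet2-E, all below the 28.5 to 31.1 CPM of Tet2-WT (0.57 ± 0.10, adjusted p = 0.0027). G6pdx was higher in Tet2-WT by 0.29 ± 0.06 (adjusted p = 0.00813), also without overlap. Libraries did not overlap for 9 of the 39 genes, against 15% of all genes tested. Pfkp stood at 89.6 to 114 CPM in Tet2-E (0.29 ± 0.08, adjusted p = 0.0552) and Eno2 at 24.5 to 28.1 CPM (0.31 ± 0.10, adjusted p = 0.0879). With the replicate block both passed, at 0.30 (adjusted p = 0.0443) for Pfkp and 0.35 (adjusted p = 0.0174) for Eno2. Pfkp also passed without Tet2-E 1 (0.36), and Slc2a4, at or below 0.49 CPM in every day 5 library, passed only without Tet2-WT 2 (-2.26). Slc16a1 (0.24 ± 0.07), Ldhb (-0.24 ± 0.08), Pgd (0.18 ± 0.09) and Pdhb (0.13 ± 0.08) did not pass. Under the alternatives, Slc16a1 passed in DESeq2 (0.23, adjusted p = 0.0201) and Ldhb with the set of replicate numbers as a term (-0.26, adjusted p = 0.0378). The fibroblast and feeder markers also differed here, with 6 of 16 lower in Tet2-WT.

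Some of these genes also followed the replicate numbers, which the labels give as 1, 2, 100 and 250. According to the labels, library preparation was done as 2 sets of unnamed membership, and the numbers 1 and 2 stood apart from 100 and 250 at day 5 over all genes. For 5 of the 39 genes, the 5 day 5 libraries numbered 1 or 2 did not overlap with the 5 numbered 100 or 250, whatever the vector, against 7.14% of all genes tested. Slc2a1 stood at 361 to 572 CPM in the first and 324 to 345 CPM in the second, Hk2 at 260 to 325 CPM and 198 to 233 CPM, and Pfkfb3 at 104 to 145 CPM and 62.0 to 83.8 CPM. Aldoc was lower in the first, at 15.6 to 24.7 CPM against 27.7 to 32.4 CPM, and so was Pdk2, at 6.02 to 7.04 CPM against 7.58 to 9.17 CPM. The split was seen in these data, so no test is given. Tet2-WT holds 2 libraries of the first kind and 1 of the second, pMXs 1 and 2. Within each kind, the log2 ratio of Tet2-WT to pMXs means was 0.53 and 0.48 for G6pdx, 0.57 and 0.60 for Eno3, 0.61 and 0.49 for Eno2, and 0.37 and 0.42 for Pfkp. It was 0.31 and 0.20 for Slc16a1, 0.30 and 0.26 for Pgd, 0.22 and 0.27 for Pdhb, and -0.37 and -0.26 for Ldhb. Since no Tet2-WT library overlapped a pMXs library for any of these 8 genes, the sign within each kind was fixed and only the sizes are informative.

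**Figure D5:**
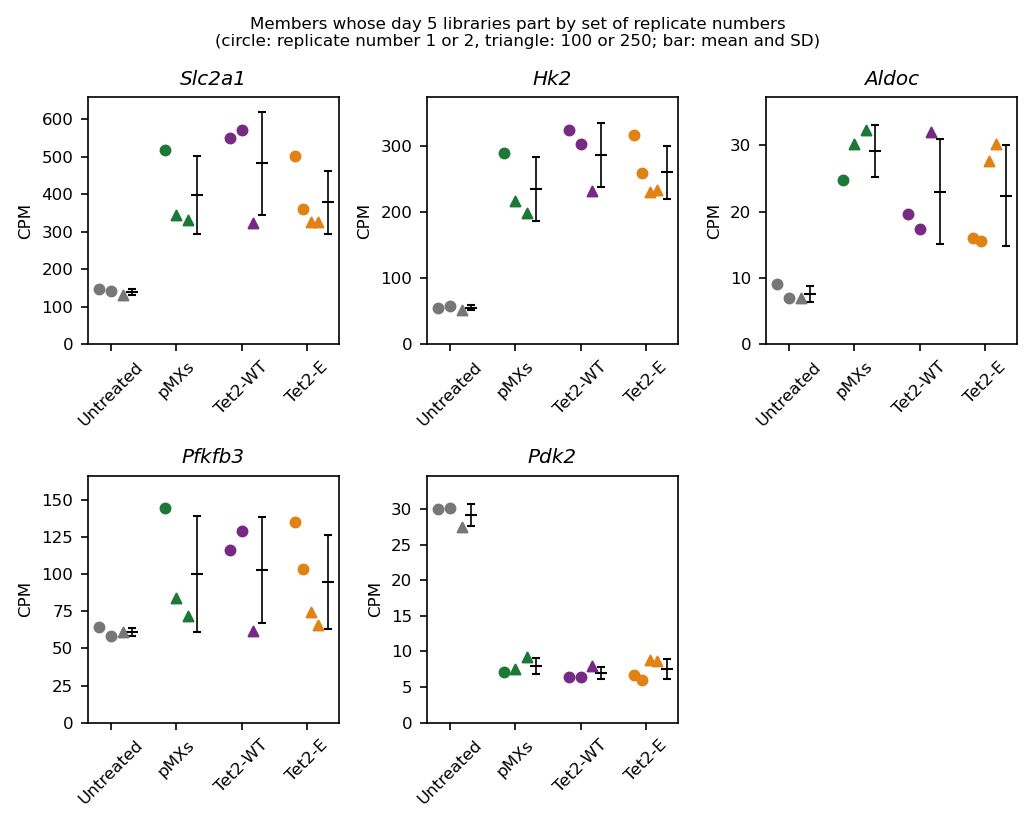
CPM in each library, by group, for the 5 genes whose day 5 libraries numbered 1 or 2 (circles) did not overlap with those numbered 100 or 250 (triangles), with bars for each group's mean and SD. At day 5 the circles lie higher for Slc2a1, Hk2 and Pfkfb3 and lower for Aldoc and Pdk2.

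Other genes of glucose use were read from 7 lists. Beside the counts below, 35% of all genes tested rose and 35% fell from Untreated to pMXs. From pMXs to Tet2-WT, 6.01% of all genes tested rose and 6.52% fell. Among other glycolytic enzymes, 4 of 13 tested rose and 3 fell from Untreated to pMXs. Tigar, a phosphatase that lowers fructose 2,6-bisphosphate, went from 19.2 ± 0.8 to 48.2 ± 5.3 CPM (1.33 ± 0.10) and Bpgm, which makes 2,3-bisphosphoglycerate, from a mean of 21.3 to 44.7 CPM (1.07 ± 0.11). From pMXs to Tet2-WT, 4 of the 13 rose and 0 fell, among them Tigar, to 70.0 ± 7.3 CPM (0.54 ± 0.10, adjusted p = 0.00157; SD, n = 3), and Galm, the mutarotase that converts the anomers of hexoses, from 15.5 to 24.7 CPM (0.67 ± 0.15). Of 11 other transporters, 1 rose and 6 fell at day 5: Slc2a6 gained 1.28 ± 0.14, whereas Slc2a13, a proton myo-inositol transporter, was at -2.52 ± 0.21 and Slc2a10 at -2.13 ± 0.15. In Tet2-WT against pMXs, 2 rose and 1 fell, with Slc2a5, the fructose transporter, at 1.55 ± 0.35 (means of 0.74 CPM in pMXs and 2.10 CPM in Tet2-WT), Slc2a6 at 0.50 ± 0.12 and Slc2a10 at -0.73 ± 0.17. Those 3 calls were each lost without pMXs 100 (1.35, 0.43 and -0.63). That of Slc2a6 was also lost without Tet2-WT 2 (0.44), and that of Slc2a10 without Tet2-WT 1 (-0.63). Between Tet2-WT and Tet2-E, 1 of the 11 was higher in Tet2-WT and 1 lower, against 2.43% and 2.19% of all genes tested. Slc2a6 was higher (0.72, adjusted p = 0.00163), a call that held under every alternative. Slc2a10 was lower (-0.73, adjusted p = 0.0149), a call lost without Tet2-WT 1 (0.0972) or Tet2-E 250 (0.0518).

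Of 7 other pentose phosphate enzymes, 3 rose and 1 fell from Untreated to pMXs. The ribose phosphate pyrophosphokinases Prps1 (1.38 ± 0.09) and Prps2 (0.98 ± 0.09) rose, and H6pd, the dehydrogenase of the endoplasmic reticulum, fell from 166 ± 14 to 54.8 ± 5.6 CPM (-1.60 ± 0.09; SD, n = 3). From pMXs to Tet2-WT, 0 of the 7 rose and 1 fell, H6pd again (-0.30 ± 0.09, adjusted p = 0.0466), unlike G6pdx and Pgd. That call was lost with the replicate block (adjusted p = 0.0537), with the set term (0.063), without the count filter (0.0581), and without pMXs 100 (0.107), pMXs 250 (0.221), Tet2-WT 1 (0.123), Tet2-WT 2 (0.155) or Tet2-WT 250 (0.0688). Of 13 other genes of pyruvate entry, 4 rose and 6 fell. Pcx, the pyruvate carboxylase that feeds oxaloacetate, went from 65.3 ± 1.1 to 217 ± 15 CPM (1.74 ± 0.08). Pdp1, the phosphatase that reactivates pyruvate dehydrogenase, fell from a mean of 78.0 to 20.9 CPM (-1.89 ± 0.22). In Tet2-WT, Pcx was lower than in pMXs, at 155 ± 5 CPM (-0.49 ± 0.08, adjusted p = 0.00053), and the mitochondrial malic enzyme Me2 was higher (0.56 ± 0.10); 2 of the 13 rose and 1 fell.

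Gluconeogenesis and glycogen genes split 5 up and 8 down of 16 at day 5. Gbe1, the glycogen branching enzyme (0.72 ± 0.12), and Pgm2 (0.41 ± 0.09) rose, and the glycogen phosphorylases Pygb (-1.40 ± 0.09) and Pygm (-1.89 ± 0.38) fell. In Tet2-WT, 1 of the 16 rose and 1 fell. Fbp2, the muscle fructose bisphosphatase, went from 0.17 ± 0.05 CPM in pMXs to 2.39 ± 0.70 CPM (3.84 ± 0.48, adjusted p = 0.000107) and was at 0.49 ± 0.32 CPM in Tet2-E (SD, n = 4). Its difference between Tet2-WT and Tet2-E was 2.26 ± 0.35 (adjusted p = 0.00152). Pck2, the mitochondrial carboxykinase, was lower in Tet2-WT than in pMXs (-0.83 ± 0.14).

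Regulators that sense oxygen and glucose rose in 8 and fell in 3 of 17 cases at day 5. Egln3, an oxygen-dependent HIF hydroxylase that is itself a HIF target, went from 35.4 ± 2.9 to 197 ± 53 CPM (2.47 ± 0.16) and Prkaa2, a catalytic subunit of AMPK, from a mean of 15.1 to 71.7 CPM (2.24 ± 0.10). Egln3 was higher again in Tet2-WT, at 386 ± 17 CPM (0.97 ± 0.15, adjusted p = 0.000692), against 212 ± 30 CPM in Tet2-E (n = 4). The difference between the constructs was 0.86 ± 0.14 (adjusted p = 0.00218). Epas1, which encodes HIF-2 alpha, was also higher in Tet2-WT than in pMXs (0.48 ± 0.11, adjusted p = 0.00896). That call was lost without pMXs 250 (0.0571) or Tet2-WT 1 (adjusted p = 0.056). The HIF-2 alpha partner Arnt2 was lower (-0.62 ± 0.10). From pMXs to Tet2-WT, 2 of the 17 rose and 1 fell. Epas1 was also higher in Tet2-WT than in Tet2-E (0.44, adjusted p = 0.0214). This was lost without Tet2-WT 1 (0.147), Tet2-E 2 (0.0536) or Tet2-E 100 (0.0587).

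Of 22 HIF targets outside glycolysis, 9 rose and 9 fell from Untreated to pMXs, with a median log2 fold change of 0.21. That is 81.8% called, against 70.1% of all genes tested, which also rose and fell in equal shares of 35%. The circadian repressor Bhlhe40 (2.39 ± 0.10) and the carbonic anhydrase Car12 (1.89 ± 0.10) rose, and the peptide hormone Adm (-2.30 ± 0.14) and Ndrg1 (-1.55 ± 0.11) fell. In Tet2-WT against pMXs, 2 of the 22 rose and 1 fell: the oxidase Ero1l at 0.43 ± 0.10, Bhlhe40 at 0.37 ± 0.10 and the collagen hydroxylase P4ha2 at -0.46 ± 0.09. The Bhlhe40 call was lost without pMXs 2 (adjusted p = 0.0536), pMXs 100 (0.109) or Tet2-WT 1 (0.105). Between Tet2-WT and Tet2-E, 1 of the 22 passed, P4ha2, lower in Tet2-WT (-0.34, adjusted p = 0.0257). It was lost without Tet2-WT 1 (0.116), Tet2-WT 2 (0.137), Tet2-E 1 (0.0702), Tet2-E 100 (0.0729) or Tet2-E 250 (0.0768). In Tet2-E against pMXs, 0 genes of any of the 7 lists passed in edgeR. At an unadjusted p under 0.05 there were 0 to 3 per list, against 1363 of all 14607 genes tested. Macrophage markers, which can bear on any of these genes, summed to 5.89 to 6.91 CPM in Untreated, 81.0 to 94.6 CPM in pMXs, 213 to 309 CPM in Tet2-WT and 93.5 to 127 CPM in Tet2-E. At day 5 this sum was mostly Laptm5, at 75.0 to 88.1 CPM in pMXs and 191 to 282 CPM in Tet2-WT. Of 6 markers tested, 3 rose and 3 fell from Untreated to pMXs, the latter being Csf1r, Lyz2 and Cd53. Between pMXs and Tet2-WT, 4 of the 6 rose (Laptm5, Cd68, Itgam and Csf1r), where 6.01% of all genes tested rose. Csf1r reached only 0.67 to 1.08 CPM in Tet2-WT. The other tested markers, Lyz2 and Cd53, did not pass. Lyz2 stood lower in Tet2-WT (0.037 to 0.048 CPM) than in pMXs (0.063 to 0.19 CPM). Cd53 was at 0 in pMXs and at most at 0.037 CPM in Tet2-WT. Adgre1 and Tyrobp were at 0 in every library of both groups. The part of macrophage markers in the Tet2-WT differences was not tested.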

How the data were processed

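Bulk RNA-seq counts of 13 libraries were analysed: 3 Untreated, 3 pMXs, 3 Tet2-WT and 4 Tet2-E. Per the labels' protocols, libraries came from a stranded mRNA kit and were sequenced in pairs of 40-base reads. The authors deposited raw read counts per gene; per the submitters' processing notes the tools were STAR 2.6.1a, SAMtools 1.7, bedtools 2.27.1, featureCounts 1.6.2, R 3.6.2 and DESeq2 1.26.0 with build mm9. Strand setting and treatment of multi-mapping reads are not given in the sources used here.

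Counts were tested in R 4.3.3 with edgeR 4.0.16 (TMM scaling, robust quasi-likelihood fit of all 13 libraries with a mean per group). Genes passed filterByExpr (count minimum 10, total minimum 15), leaving 14607 of 24495, and p-values were adjusted by Benjamini-Hochberg over all of them at 0.05. A standard error (SE) is the log2 fold change divided by the root of F, and ± beside a log2 fold change is that SE. The biological coefficient of variation was 0.102. Chi-square per degree of freedom between 15 pairs of replicates was 6.63 to 42.9, so no pair was 1 library in duplicate. Isozyme ratios used count + 0.5 and exact permutation tests. The fit was tested on simulated data.

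The members and all lists were chosen with earlier results of these data known. All 39 members are named; values per library are given for those that passed at day 5, the 3 highest and 3 lowest changes from Untreated to pMXs, the isozyme pairs, Gapdh, Ldha, Pkm and Hif1a. From each pathway list at most 2 that rose and 2 that fell most per comparison, with at least 1 CPM in a group, could be named. Aliases not found in the table were left out. Lengths and shared 40-base stretches came from GENCODE vM21 transcripts linked to RefSeq, promoters from RefSeq (GRCm38.p6); no coordinates were joined to the mm9 counts.

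Deviations from group means over all genes correlated between day 5 libraries of the same replicate number (r = 0.126 to 0.5, 8 pairs) and as much between those of the same set but another number (0.082 to 0.503, 8 pairs). By the rule that every same-number pair exceeds 0.1, the numbers were taken to pair day 5 libraries, although the set alone shows as much; with Untreated libraries r was -0.073 to 0.249 (7 pairs). Libraries 1 and 2 against 100 and 250 gave -0.585 to -0.111 (17 pairs). The main tests held no term for the number or its set, so they leave this structure in the spread. Alternatives were RLE size factors, DESeq2 1.42.0, other count filters, the replicate number or its set as a term, the 2 groups alone, each library left out, and count + 5 in the ratios.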

Additional observations from a re-analysis of the deposited data

Results flagged for a closer look

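In the Tet2-E group, 2 genes had 1 library far from the other 3, by the gap to the nearest library over the range of the group. Slc2a3 read 308.7 CPM in replicate 1 and 219.6 to 229 CPM in the others (gap over range 0.894). Pkm read 1864 CPM in replicate 2 and 2262 to 2309 CPM in the others (also 0.894). The 39 genes were each screened this way in the Tet2-E group, and chance alone picks out about 1 in 20 such groups. At that rate, chance would give about as many among the 39 genes as were found. Replicate 2 also had the lowest share of counts in the 39 genes together, 1.01% against 1.17% to 1.21% in the others. That share includes Pkm itself, but Aldoa was also low in replicate 2, at 1305 CPM against 1697 to 1810 CPM in the others. The low Pkm value of replicate 2 thus did not stand alone. Not every gene was low there, as Hif1a read 327 CPM, the highest of the group. The cause was not tested. The response to Tet2-WT and to Tet2-E, each against pMXs, differed by the test of the difference for Eno3 (0.57 on the log2 scale) and G6pdx (0.295).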

How the results depend on the processing

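Of the 31 genes called from Untreated to pMXs, 27 were called under every alternative, and the count of genes called ranged from 27 to 34; 34 were called with the replicate block. From pMXs to Tet2-WT, 4 of the 8 calls (G6pdx, Eno3, Eno2, Pfkp) held under every alternative. Leaving out 1 library left 4 to 7 genes: 4 without pMXs 100, pMXs 250 or Tet2-WT 1, and 5 without Tet2-WT 2. With the replicate block there were 7. From pMXs to Tet2-E, DESeq2 called 1 gene and the other alternatives 0. Over all genes tested, this comparison had 7 calls, 93 with the replicate block, 152 with the set of replicate numbers as a term, 141 in DESeq2, 17 without the count filter, 0 in a fit of the 2 groups alone, and 50 without Tet2-E 100. Without pMXs 100, pMXs 250 or Tet2-E 1 it had 1, and without Tet2-E 2 it had 2. Between Tet2-WT and Tet2-E, both calls held under every alternative, and there were 4 with the replicate block, 5 with the set term and 4 in DESeq2. The replicate block changed no call among the 39 genes other than those named in the report. Of all genes, 1830 were called from pMXs to Tet2-WT, and 1097 to 1175 without pMXs 100, pMXs 250, Tet2-WT 1 or Tet2-WT 2. Between Tet2-WT and Tet2-E, 675 genes were called, 1052 with the set term, 335 without Tet2-WT 1 and 339 without Tet2-WT 2. Of the isozyme ratios, Hk2 to Hk1 from pMXs to Tet2-WT ranged from -0.02 (without pMXs 250) to 0.213 and Pfkm to Pfkl from -0.027 (without pMXs 2) to 0.175 as 1 library was left out. The cause of these shifts was not tested. No scaling moved the median of all genes by 0.1 or more on the log2 scale. With 3 or 4 libraries a group, the narrowest and widest 95% half-widths for Tet2-E were 0.13 and 0.96, which sets what could be detected, and the ratios could not reach a p under 0.1.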
